A study of Mus musculus with 18 samples.

Results

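The splicing factor genes described here are the members of 5 gene families whose symbols begin with Srsf, Hnrnp, Snrp, Sf3a or Sf3b (here 1 family, Sf3) and U2af. They were chosen by symbol alone from the 51467 genes of a table of read counts, and names marked as pseudogenes with -ps were left out. This gave 55 members, of which 20 were Hnrnp, 13 Snrp, 11 Srsf, 9 Sf3 and 2 U2af genes. Of these, 54 passed the filter on low counts and were tested among 12851 genes. Srsf12 did not pass, with 26 reads over the 18 libraries and 0 to 5 reads in any one of them.

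Pre-mRNA splicing removes introns in the spliceosome, which is built from small nuclear ribonucleoproteins (snRNPs). Most of these snRNPs carry a ring of Sm proteins, encoded by Snrp genes, on their RNA. U2AF recognises the end of an intron and the SF3A and SF3B complexes, parts of the U2 snRNP, hold the branch point. SR proteins (Srsf genes) bind exons and mostly favour their use, while hnRNP proteins coat nascent transcripts and often favour skipping. Many SR protein genes also hold a poison exon, whose inclusion sends the transcript to nonsense-mediated decay.

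The samples were mouse embryonic stem cells (ESCs) and each genotype was 1 line, either wild type (WT) or knocked out for Dgcr8 (KO). DGCR8 is needed to process primary microRNA (miRNA) transcripts, and KO cells lack canonical miRNAs. Both genotypes were grown with LIF and kinase inhibitors and were treated for 2 minutes with 100 ug/ml cycloheximide, an inhibitor that stalls elongating ribosomes, before lysates were run on 10 to 50% sucrose gradients. From 3 gradients of each genotype the monosome, low polysome (2 to 4 ribosomes) and high polysome (4 or more) fractions were sequenced from their 3′ ends, which makes 6 groups of 3 libraries. Libraries of a genotype with the same number in their labels were taken as 1 gradient. The labels do not state this, nor whether the 3 gradients came from separate cultures. The p-values measure only the spread between the 3 libraries within each group, which may be technical. Fractions of 1 gradient were fitted as independent libraries, and the gradient entered only in an alternative fit given below.

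Libraries held 1151649 to 4984833 counts, with the smallest totals in monosomes. Over the 3 fractions, Dgcr8 was at 26.1 to 79.6 CPM (read counts relative to the scaled total of the library) in WT and 8.73 to 58.6 CPM in KO libraries, with log2 differences between genotypes of -0.56, -0.45 and -1.01 from the lightest to the heaviest fraction. Reads at a 3′ end do not check a deletion elsewhere in the gene, and the deleted exons are not given in the sources used here. All 8 ESC markers were detected, and together they reached 2744 to 3254 CPM in WT monosomes and low polysomes, 4738 to 5192 CPM in WT high polysomes and 2830 to 3302 CPM across KO libraries. Summed over its list, neural markers (2 of 4 passed the filter) held 43.2 to 130.2 CPM in WT and 19.9 to 40.3 CPM in KO libraries, nearly all from Sox1 and Tubb3. The lists for fibroblasts (2 of 6 passed), primitive endoderm (1 of 5) and mesoderm (1 of 4) held at most 21.5, 8.46 and 10.8 CPM in any library. Of these 19 markers of other cell types 13 had 0 reads in at least 1 library, Gata6, Sox17, Dcn and Neurog2 among them. The part of these differences in the results was not tested, and in bulk samples fewer cells of a type and less RNA per cell cannot be told apart.

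The KO removes, among others, the miRNAs that share the ESC cell cycle (ESCC) seed, and 11 of the 55 members carry a site for that seed in the 3′ UTR of their representative transcript. The sequences show the seed that the knockout takes away and the sites that these members present to it. No miRNA was measured here, and the paper describes naive ESCs as negative for its miR-302 reporter. The miR-302b sequence is therefore shown for its seed alone. The mature miRNAs, from RefSeq on GRCm38.p6, are written with the seed (bases 2 to 8) in capitals.
mmu-miR-294-3p: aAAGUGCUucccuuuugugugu
mmu-miR-295-3p: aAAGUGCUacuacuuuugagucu
mmu-miR-302b-3p: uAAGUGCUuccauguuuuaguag
The matching stretches of 6 members are written 5′ to 3′ on the transcript strand with the site in capitals, either 7 bases (7mer-m8) or 8 bases with a closing A (8mer). Sites of Srsf1 (chr11:88052952-88052959, plus strand), Hnrnpu (chr1:178327029-178327036, minus strand) and Hnrnpul2 (chr19:8831820-8831827, plus strand) are 8mers on GRCm38. Those of Snrpd3 (chr10:75535631-75535637, plus strand), Sf3a1 (chr11:4181481-4181487, plus strand) and Sf3b1 (chr1:54985405-54985411, minus strand) are 7mers. Sf3b1 has 2 sites, and the one nearer the 3′ end of its transcript is shown.
Srsf1: ctaaccacgaaAGCACTTAaatctctttaa
Hnrnpu: atcagtggtagAGCACTTAttatcagcacc
Hnrnpul2: gcacagaaagcAGCACTTAgagctgcctat
Snrpd3: taaagagtgcaAGCACTTttcaggcctct
Sf3a1: cttcctgttgaAGCACTTgtgtagcacct
Sf3b1: accttttctttAGCACTTtgatgtttctt

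To ask whether ribosome loading of splicing factor mRNAs differed without miRNAs, the translation level of a gene was taken as its high polysome to monosome ratio (log2), and its change as the KO ratio minus the WT ratio. Of 54 members tested, 3 rose and 9 fell in translation level in KO cells. Those that rose were Sf3b3, Sf3a1 and Hnrnpl. Those that fell were Sf3b6, Snrpd3, Sf3b5, Snrpd2, Srsf9, Snrpd1, Snrpn, Snrpc and Hnrnpab. These calls, like all below, needed an adjusted p under 0.05 by limma together with a log2 change beyond 1. By the same rule 15.1% of all genes tested were called, 6.29% higher and 8.81% lower, against 12 of 54 members. The median change of the members tested was 0.00 (log2) and that of all genes tested was 0.01, while the members ranged from -2.24 to 1.64. By family, the median change was 0.70 for Sf3, 0.35 for Hnrnp, -0.17 for U2af, -0.27 for Srsf and -0.66 for Snrp genes. Scaling by total counts in place of TMM moved the change of the median gene by -0.33, and the split of calls was then 1 higher and 12 lower among members and 2.19% higher and 16.1% lower among all genes tested.

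**Figure D1:**
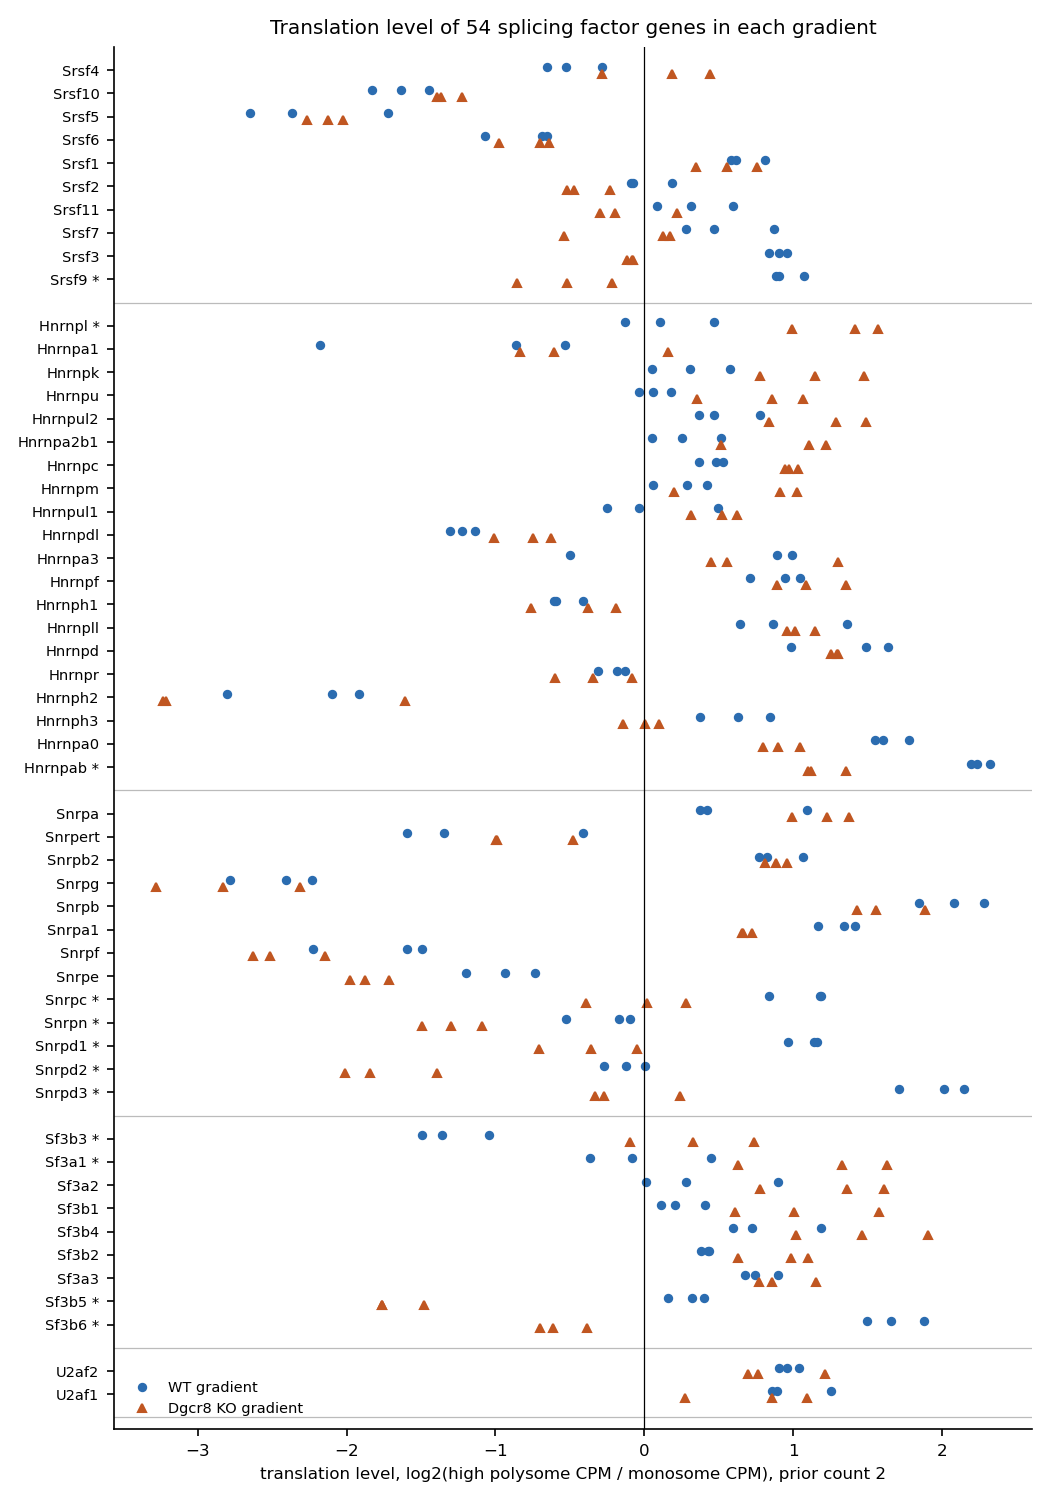
Translation level, as log2 of the high polysome to monosome ratio of CPM with a prior count of 2, of the 54 members tested, by family and ordered within a family by the change. Circles are the 3 WT gradients and triangles the 3 Dgcr8 KO gradients, and a star marks the 12 members called; all 3 KO gradients lay below all 3 WT gradients for 16 members and above them for 13.

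Among all genes tested, the KO gradients lay below the WT gradients for 21.4% and above them for 20.3%. The corresponding counts among members were 16 and 13 of 54, with 25 members overlapping. Each of the 12 called members is among those whose gradients did not overlap.

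The 8 genes of the Sm ring (Snrpb, Snrpd1, Snrpd2, Snrpd3, Snrpe, Snrpf, Snrpg and Snrpn) all had a negative change. Their median was -1.01, and 4 of them were called. All but Snrpb and Snrpn are in the shortest decile of coding length (75 to 522 nt). Of the 1177 protein-coding genes tested in that decile, 1048 had negative changes and 39.0% were called lower. Snrpb, Snrpe, Snrpf and Snrpg lay above the median change of their own decile, and the other ring genes below. Whether the ring differs from genes of similar length was not tested. Snrpd3 (chromosome 10, 75517551 to 75537381, plus strand) encodes SmD3, a subunit of that ring. Its level in WT cells was 741, 760 and 682 CPM in monosomes and 2994, 2493 and 3025 CPM in high polysomes. In KO cells the corresponding levels were 998, 899 and 1080 CPM and 794, 1059 and 896 CPM. In WT gradients, then, the mRNA was higher in the heavy fraction than in monosomes each time, and in KO gradients the 2 fractions overlapped. The translation level fell from 1.96 to -0.12 (log2), a change of -2.08 ± 0.16 (SE, n = 3 gradients per genotype, adjusted p = 1.9e-12, limma).

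Snrpd1 and Snrpd2 encode SmD1 and SmD2, which bind each other in the ring. Snrpd1 stood at 658, 697 and 701 CPM in WT high polysomes and at 207, 206 and 197 CPM in KO high polysomes. In monosomes its WT libraries (299, 311 and 359 CPM) overlapped the KO libraries (339, 213 and 253 CPM). In low polysomes WT libraries held 807, 764 and 654 CPM and KO libraries 507, 425 and 398 CPM, also without overlap, with a difference of -0.74 (log2, adjusted p = 2.2e-06, limma). The translation level fell by 1.46 ± 0.19 on the log2 scale (SE, adjusted p = 1.1e-07, limma). Snrpd2 had 318, 279 and 364 CPM in WT and 82.7, 134.5 and 108.5 CPM in KO high polysomes, without overlap, and its translation level fell by 1.63 ± 0.19 (SE, adjusted p = 2.0e-08, limma). Unlike Snrpd1, whose difference there was under the fold threshold, it was also called in low polysomes, where WT libraries held 627, 612 and 653 CPM and KO libraries 265, 337 and 311 CPM.

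Snrpn encodes SmN, a close relative of SmB from an imprinted locus that it shares with Snurf. Its WT high polysome libraries held 46.4, 38.6 and 38.5 CPM and the KO libraries 10.6, 12.1 and 10.6 CPM. KO libraries were also below WT libraries in monosomes (23.3 to 35.3 against 41.3 to 55.7 CPM) and in low polysomes (18.4 to 25.0 against 64.1 to 74.0 CPM). Its translation level fell by 1.11 ± 0.28 (SE, adjusted p = 0.0021, limma), and by 0.996 without KO gradient 2, which is under the fold threshold. Snrpb, which encodes SmB itself, had the highest translation level of the members in KO cells (1.64) and 2.07 in WT cells. Its change of -0.43 ± 0.20 (SE) had an adjusted p of 0.11 (limma).

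Snrpe, Snrpf and Snrpg, whose products SmE, SmF and SmG form a trimer of the ring, were on the monosome side already in WT cells, at translation levels of -0.96, -1.78 and -2.51. Their changes were -0.91, -0.66 and -0.41, and none passed the fold threshold. In KO low polysomes all of them fell, Snrpg by 1.85, Snrpf by 1.69 and Snrpe by 1.09 (log2). For Snrpg the KO low polysome libraries held 39.0, 40.7 and 42.3 CPM against 141.7, 155.1 and 144.8 CPM in WT, so the groups did not overlap. In high polysomes Snrpg held 30.4, 28.1 and 21.97 CPM in WT and 14.2, 13.7 and 9.42 CPM in KO cells, again without overlap.

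Outside the ring, Snrpc, which encodes the U1-C protein of the U1 snRNP, fell in translation level. It had 51.1, 45.1 and 35.4 CPM in WT and 18.5, 23.3 and 21.8 CPM in KO high polysomes, while its monosome libraries overlapped at 19.4 to 22.1 and 19.03 to 24.5 CPM. The change was -1.07 ± 0.30 (SE, adjusted p = 0.0051, limma) and -0.92 without KO gradient 1. Snrpa, for the U1-A protein, had the highest change of the family at 0.60 ± 0.30 (SE, adjusted p = 0.14, limma). Snrpert is annotated as a processed pseudogene, and it passed the filter through WT libraries alone. It had 3 to 16 reads in WT and 1 to 9 reads in KO libraries, and its values are uncertain, since reads of a processed pseudogene and its parent gene are hard to tell apart.

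**Figure D2:**
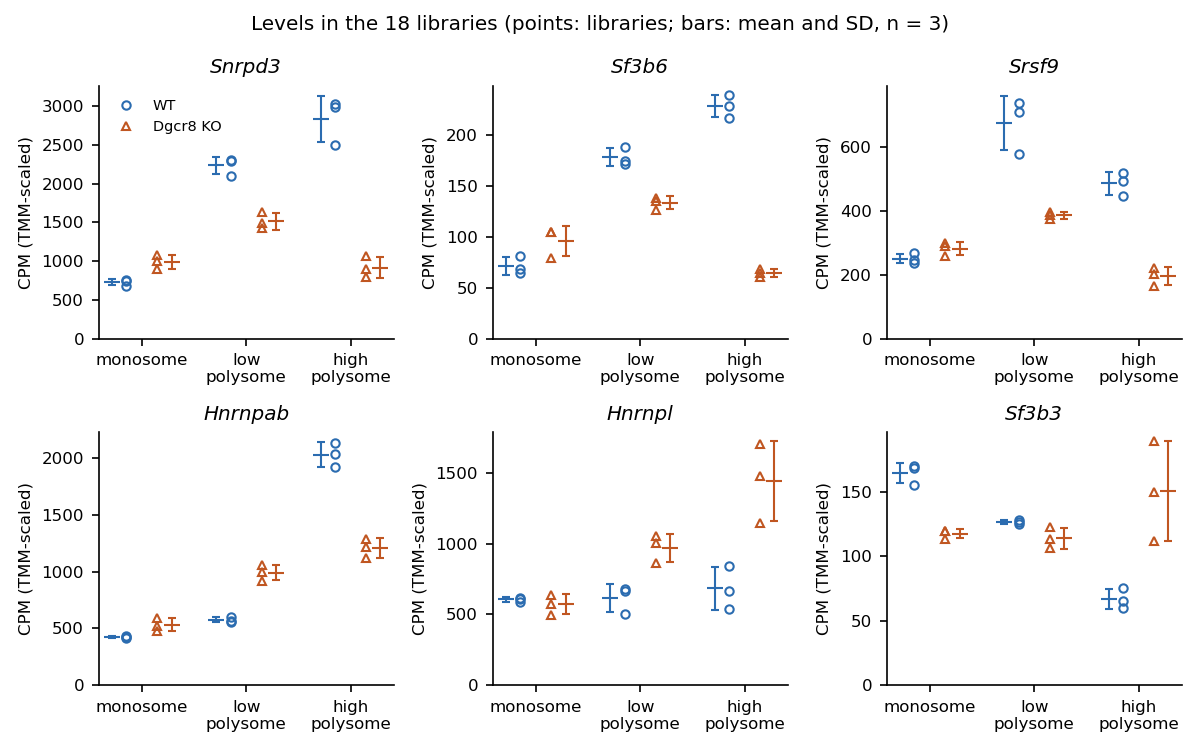
Level in CPM (TMM-scaled, linear axis from 0) of 6 members in the 3 fractions, with 1 point per library (circles WT, triangles Dgcr8 KO) and the mean and SD of each group of 3. In high polysomes Snrpd3, Sf3b6, Srsf9 and Hnrnpab were lower, and Hnrnpl and Sf3b3 higher, in each KO library than in each WT library.

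Among the Sf3b genes chosen by symbol, which need not cover the whole SF3B complex, the 2 with the shortest coding sequences, Sf3b5 and Sf3b6, fell. Of Sf3b1 to Sf3b4, whose changes were all positive, only Sf3b3 rose. Sf3b6 encodes SF3B14a (p14), which sits at the branch point, and Sf3b5 encodes the small SF3B10 protein. Sf3b6 rose across fractions in WT cells, from 68.3, 80.7 and 64.5 CPM in monosomes to 217, 228 and 239 CPM in high polysomes. In KO cells it went from 104.5, 79.2 and 105.0 CPM to 68.1, 60.6 and 64.3 CPM. Every KO high polysome library was below every WT one, and every KO gradient was below 0 in translation level where every WT gradient was above. The change of -2.24 ± 0.19 (SE, adjusted p = 3.6e-11, limma) was the lowest of the members tested. For Sf3b5 the high polysome libraries held 277, 257 and 288 CPM in WT and 77.4, 92.0 and 83.0 CPM in KO cells, and its translation level fell by 1.97 ± 0.17 (SE, adjusted p = 3.6e-11, limma).

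Sf3b3 encodes SF3B130, a large scaffold subunit. Its levels in WT cells declined from 155, 168 and 170 CPM in monosomes to 74.9, 65.2 and 59.9 CPM in high polysomes. In KO cells monosomes held 120, 120 and 113 CPM and high polysomes 150, 112 and 189 CPM. KO libraries were below WT libraries in monosomes and above them in high polysomes, with no overlap in either. The translation level rose from -1.31 to 0.33, a change of 1.64 ± 0.20 (SE, adjusted p = 6.2e-08, limma), the highest of the members tested.

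Sf3a1, the largest subunit of SF3A, rose by 1.19 ± 0.22 (SE, adjusted p = 6.7e-05, limma), from translation levels of 0.45, -0.08 and -0.37 in WT gradients to 1.33, 0.63 and 1.63 in KO gradients. The groups did not overlap, and the change was 0.96 without KO gradient 3 and 0.87 under scaling by total counts, both under the fold threshold. The 5 remaining Sf3 genes were also positive but were not called, and Sf3a2, Sf3b1 and Sf3b2 had an adjusted p under 0.05. Sf3a2 changed by 0.87 ± 0.29 (SE, adjusted p = 0.022, limma). Sf3b1, which encodes the subunit that encloses the branch point adenosine, changed by 0.83 ± 0.20 (SE, adjusted p = 0.0012, limma). Sf3b2 changed by 0.49 ± 0.16 (SE, adjusted p = 0.023, limma), and by 0.16 under scaling by total counts (adjusted p = 0.50).

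In the Hnrnp family 1 gene rose and 1 fell of 20 tested, and 14 changes were positive. Hnrnpl encodes hnRNP L, which binds CA-rich elements. It stood at 665, 539 and 845 CPM in WT and 1705, 1146 and 1480 CPM in KO high polysomes, and at 617, 589 and 612 CPM against 640, 575 and 499 CPM in monosomes. Monosome libraries overlapped and high polysome libraries did not. Its translation level rose by 1.18 ± 0.20 (SE, adjusted p = 1.7e-05, limma), or by 0.85 under scaling by total counts, which is under the fold threshold.

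Hnrnpab encodes hnRNP A/B, a nucleic acid binding protein. In WT cells it had the highest translation level of the members, with 426, 433 and 417 CPM in monosomes and 2135, 2036 and 1917 CPM in high polysomes. In KO high polysomes it held 1290, 1218 and 1118 CPM, below each WT library, and in KO low polysomes 998, 921 and 1055 CPM, above the 603, 559 and 567 CPM of WT. The difference was thus downward in high and upward in low polysomes, and the translation level fell from 2.25 to 1.19, a change of -1.06 ± 0.15 (SE, adjusted p = 7.2e-07, limma).

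Short of the fold threshold, 7 other Hnrnp genes had an adjusted p under 0.05 (limma). Hnrnpk, whose product binds C-rich RNA, changed by 0.82 ± 0.19 (SE, adjusted p = 0.0010), with 642, 603 and 926 CPM in WT and 1210, 1003 and 1418 CPM in KO high polysomes. These groups did not overlap, and neither did those of Hnrnpu, a nuclear scaffold protein gene, in translation level (-0.04 to 0.18 in WT and 0.35 to 1.07 in KO gradients). Hnrnpu, Hnrnpul2, Hnrnpa2b1 and Hnrnpc changed by 0.70, 0.69, 0.67 and 0.53. Lower in KO cells were Hnrnpa0 (-0.72, adjusted p = 0.00093) and Hnrnph3 (-0.62, adjusted p = 0.015). Hnrnpa0 held 1148, 1120 and 1236 CPM in WT and 915, 881 and 866 CPM in KO high polysomes, and all its KO libraries were below those of WT there and above them in monosomes.

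Hnrnph2 had the lowest translation level of the members in both genotypes, -2.53 in WT and -3.04 in KO cells. It rests on 2 to 45 reads per library, and its change of -0.51 ± 0.60 (SE) had an adjusted p of 0.57 (limma), and it ran from -1.29 without KO gradient 3 to -0.13 without KO gradient 1. Hnrnpa1 had 111 reads over all libraries, and its values are uncertain, as only uniquely aligned reads were counted and the gene has near-identical processed pseudogenes. The Hnrnp median of 0.35 became 0.02 under scaling by total counts, with 10 positive and 10 negative changes, while the median of all genes tested became -0.32.

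Among 10 Srsf genes tested, 1 fell and none rose. Srsf9, which encodes a short SR protein with a brief RS tail, had translation levels of 0.89, 0.91 and 1.07 in WT and -0.85, -0.52 and -0.22 in KO gradients. Its high polysome libraries held 494, 446 and 517 CPM in WT and 164, 201 and 222 CPM in KO cells, with no overlap, and its translation level fell by 1.48 ± 0.17 (SE, adjusted p = 2.4e-08, limma). Srsf3, for the smallest SR protein, lay just short of the fold threshold at -0.99 ± 0.16 (SE, adjusted p = 9.7e-06, limma) and was called lower in high polysomes, where it changed by -1.06. Srsf4 had the highest change of the family at 0.59 ± 0.21 (SE, adjusted p = 0.030, limma), and Srsf2, the member of the family with the most reads, changed by -0.42 ± 0.16 (SE, adjusted p = 0.042, limma). Srsf7 changed by -0.62 ± 0.17 (SE, adjusted p = 0.0059, limma). Srsf5 and Srsf10 were on the monosome side in both genotypes, at -2.25 and -1.64 in WT and -2.17 and -1.35 in KO cells. Srsf10, an SR protein gene whose product can repress splicing, was at 216, 262 and 230 CPM in WT and 109, 139 and 128 CPM in KO monosomes, with no overlap, and its difference there (-0.91) was under the fold threshold.

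The U2AF heterodimer did not show a detectable change. The larger subunit gene U2af2 changed by -0.08 ± 0.18 (SE, adjusted p = 0.80, limma) and U2af1 by -0.27 ± 0.25 (SE, adjusted p = 0.46, limma). Their gradients overlapped between genotypes. The change of U2af1 was -0.45 without KO gradient 3 and -0.03 without KO gradient 1, and it was -0.59 under scaling by total counts.

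To see in which fraction the levels differed, KO was compared with WT within each fraction. In monosomes, where 18.1% of all genes tested were called (8.43% higher and 9.63% lower), limma called 0 of 54 members. At an unadjusted p under 0.05 there were 28 members, against 45.5% of all genes tested. An adjusted p under 0.05 was reached by 19 members, 4 higher and 15 lower, against 17.5% higher and 19.9% lower among all genes, and none of the 19 had a change beyond 1. edgeR and DESeq2 also called 0. Snrpd3, Hnrnpab, Sf3b6 and Hnrnpa0 were the 4 higher ones, and all of these had a negative change in translation level. The monosome difference enters that change with a minus sign, so these signs are not independent.

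In low polysomes, leaving out the pseudogene Snrpert, 6 of 53 members fell and 0 rose, against 25.0% of all genes tested (11.4% higher and 13.6% lower). They were Snrpg, Snrpf, Snrpn, Snrpe and Snrpd2 of the Sm ring and the SF3B subunit gene Sf3b5. Snrpert was called lower as well, but it passed the filter only through the genotype where it is high and is not counted as a result. With no fold threshold, and Snrpert included, there were 14 higher and 12 lower members of 54, close to the 26.1% higher and 26.2% lower among all genes tested. In high polysomes 13 members fell and 2 rose, against 33.1% of all genes tested (15.1% higher and 17.9% lower). Under scaling by total counts 15 fell, with Snrpert included, and 0 rose, against 24.2% lower and 11.1% higher. Of the 13 that fell, 9 were Snrp genes, led by Snrpn (-1.88) and Snrpd1 (-1.75), and the others were Sf3b6, Sf3b5, Srsf9 and Srsf3. Hnrnpl (1.08) and Sf3b3 (1.16) rose. Without KO gradient 3 the rise of Sf3b3 in high polysomes was 0.97, and that of Hnrnpl was 0.96 without KO gradient 1 and 0.95 without WT gradient 2, all under the fold threshold. No member was called in all 3 fractions, which follows from the 0 calls in monosomes. In both polysomal fractions 6 fell, namely Sf3b5, Snrpd2, Snrpe, Snrpf, Snrpg and Snrpn, and the matching share of all genes was not computed. These libraries report shares of each fraction's reads, so the amount of RNA in a fraction was not compared.

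**Figure D3:**
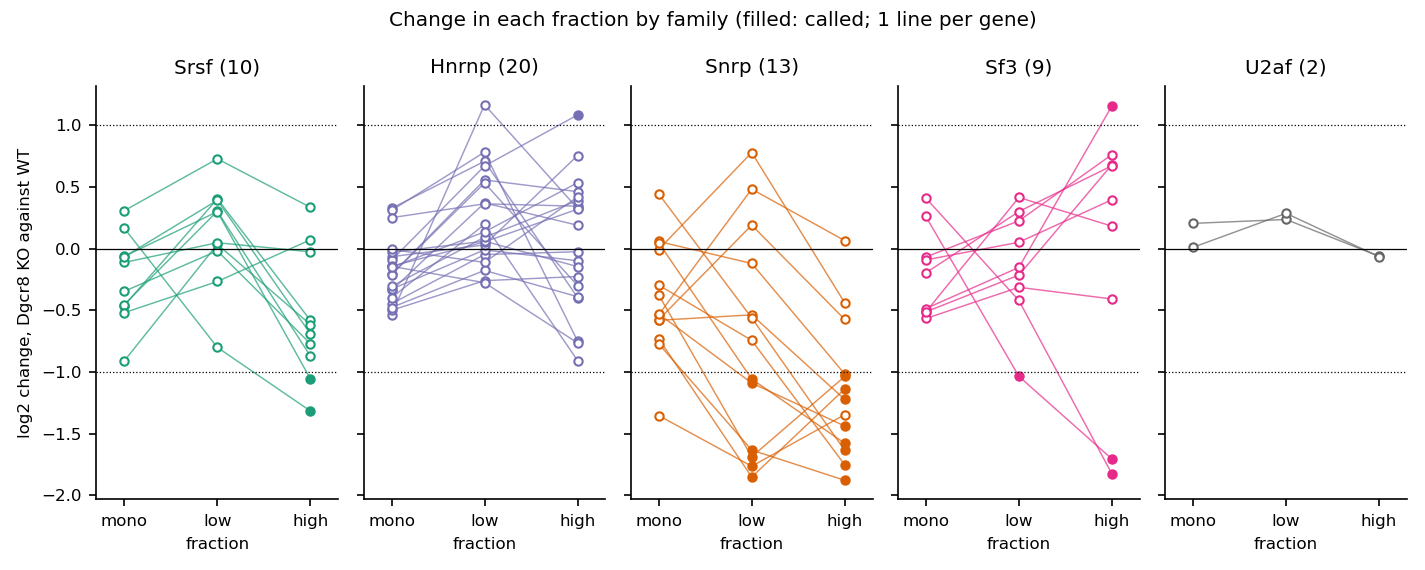
Change in level between Dgcr8 KO and WT cells (log2, vertical axis) in monosomes, low polysomes and high polysomes, with 1 line per gene and 1 panel per family (number of genes tested in brackets). Filled points are called and dotted lines mark log2 changes of 1 and -1. Of 13 Snrp lines 10 end lower in high polysomes than they start in monosomes, though those of Snrpf and Snrpg are lowest in low polysomes. The Sf3 panel holds 2 descending lines that end below -1.5 and 5 that end above 0.3.

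Within WT cells, leaving out Snrpert, 10 of 53 members had a higher level in high polysomes than in monosomes and 7 a lower one. Of all genes tested, 30.1% were called (10.7% higher and 19.3% lower). Snrpert was called lower too (-1.48), a call lost without WT gradient 2 or 3. In KO cells the counts were 13 higher and 9 lower, against 43.0% (17.5% higher and 25.5% lower). Under scaling by total counts, with Snrpert included, they were 5 higher and 12 lower, against 12.1% and 30.6%. There were 8 members called on the same side in both genotypes. The matching share of all genes tested was not computed, here or for the 5 members with opposite signs below. Snrpb, Hnrnpab and Hnrnpd were on the polysome side, and Snrpf, Snrpg, Hnrnph2, Srsf5 and Srsf10 on the monosome side. Under scaling by total counts the KO level of Hnrnpab was 0.94, under the fold threshold. For 5 members the sign differed between genotypes with an adjusted p under 0.05 in each. Sf3b3 went from the monosome to the polysome side, and Sf3b5, Sf3b6, Snrpd1 and Srsf9 went the other way. The KO level of Sf3b3 was 0.33, with 0.33, -0.10 and 0.74 in the 3 gradients, and it was 0.08 under scaling by total counts (adjusted p = 0.59, limma), so its place on the polysome side depends on the scaling.

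The members also differ in the length of their coding sequence, which the choice by symbol did not use. A coding length was available for 53 of the 54 tested. The median was 427.5 nt for Snrp, 729 nt for Srsf, 1303.5 nt for Hnrnp and 1503 nt for Sf3 genes, and Sf3 spans 258 to 3912 nt. Across these 53 genes, which share the 18 libraries, Spearman's rho between coding length and the change in translation level was 0.75, given as a description. Over the 11763 protein-coding genes tested it was 0.56. With the translation level itself, rho among members was -0.16 in WT and 0.51 in KO cells.

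In the shortest decile of coding length (75 to 522 nt) the median change of all protein-coding genes tested was -0.94, and 39.0% were called lower. The 10 members in this decile all had negative changes, and 6 of them were called. Of all 1177 protein-coding genes in this decile, 1048 had negative changes. In the upper 3 deciles, from 1950 nt, the 8 members all had positive changes, and 2 of them were called higher, against 14.3% of all genes there. Of all 3529 protein-coding genes in these deciles, 2764 had positive changes. Measured from the median of their own decile, 33 members lay above and 20 below. The change minus the decile's median was -1.29 for Sf3b6, -1.137 for Snrpd3 and -1.02 for Sf3b5, whereas it was 0.03 for Snrpe. Among the members called higher it was 1.02 for Sf3b3, 0.97 for Hnrnpl and 0.86 for Sf3a1. Not called but also above Sf3a1 by this measure were Hnrnpa1 (1.01), Snrpa (0.95), Srsf10 (0.94) and Hnrnpc (0.88). How far the coding length accounts for the changes of the members was not tested.

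**Figure D4:**
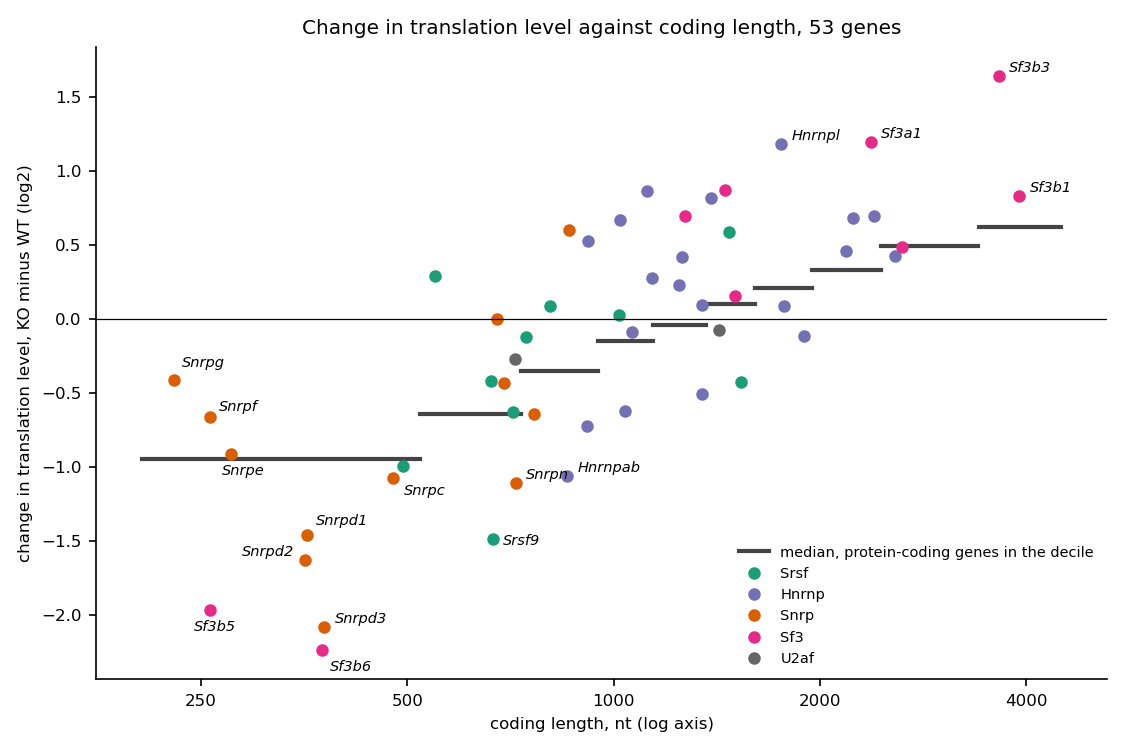
Change in translation level, Dgcr8 KO minus WT (log2), against coding length in nucleotides (log axis) for 53 members coloured by family. Horizontal bars are the medians of all protein-coding genes tested in each decile of coding length, which run from -0.94 to 0.62. The members follow that course, with Sf3b6, Snrpd3 and Sf3b5 furthest below it. The called members Sf3b3, Hnrnpl and Sf3a1 lie well above it, as do Hnrnpa1, Snrpa, Srsf10 and Hnrnpc, which were not called.

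The members with a site for the ESCC seed, shown above, were compared with the others by their values. Of the 11, 10 were tested, and their median change in translation level was 0.55 against -0.09 for the 43 without a site. For all protein-coding genes tested the medians were 0.13 with and -0.03 without a site. Sf3a1 was called higher and Snrpd3 lower, so members with the same 7-base site moved in opposite directions. Sf3b1 changed by 0.83, Hnrnpu by 0.70, Hnrnpul2 by 0.69 and Srsf1 by -0.12. In high polysomes the medians of the members were 0.40 with and -0.39 without a site, and in monosomes -0.18 and -0.21. The members with a site have longer coding sequences (median 1636.5 against 918 nt), and the parts of site and length were not tested.

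The annotation lists at least 1 transcript marked for nonsense-mediated decay in 26 of the 53 protein-coding members tested, against 28.9% of all protein-coding genes tested. By family it does so for 9 of 10 Srsf, 2 of 2 U2af, 10 of 20 Hnrnp, 4 of 12 Snrp and 1 of 9 Sf3 genes. The median change in translation level was -0.08 for the members with such a transcript and 0.09 for those without, but this order was the reverse in 3 families. Within Hnrnp the medians were 0.55 with and 0.25 without, within Snrp -0.54 and -1.09, and within Sf3 0.83 (1 gene) and 0.59. Within Srsf they were -0.42 and 0.29 (1 gene without), and over all protein-coding genes tested 0.04 and -0.02. Reads from 3′ ends do not tell these isoforms apart where they share a 3′ end.

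Genes that work with these families were taken from lists chosen by function. Among 60 other spliceosome genes 1 rose and 12 fell in translation level. The share over all genes tested, for this list and those below, was 6.29% higher and 8.81% lower. Plrg1, a subunit of the PRP19 complex, had the highest change (1.04) and Lsm2, of the Sm-like ring on U6 RNA, the lowest (-1.66). In the machinery that assembles Sm rings, 0 of 11 tested rose and 3 fell, with the lowest value for Gemin6 (-1.32), a subunit of the SMN complex, and the highest for the helicase gene Ddx20 (0.91, adjusted p = 0.0089 by limma, not called). The median of that list was -0.60.

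The list of 14 SR-related proteins and SR kinases held 2 genes that rose and 1 that fell. Tra2a, for a splicing activator with RS domains, was the highest at 1.26, and Rnps1, which also joins the exon junction complex, the lowest at -1.22. For other splicing regulators 3 of 20 tested rose and 0 fell, and Tial1 was lowest (-0.38, adjusted p = 0.19 by limma). In nonsense-mediated decay 2 of 15 rose and 2 fell, with the highest value for Smg9 (1.27), a partner of the SMG1 kinase, and the lowest for Rbm8a (-1.48), a core protein of the exon junction complex.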

How the data were processed

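The deposited values are counts of reads per gene, not normalised by the authors. Per the study's methods and processing notes, QuantSeq 3′ reads were trimmed with cutadapt 1.14 and aligned to mm10 with STAR 2.5.3a. Reads with a single locus were counted by strand over GENCODE exons with featureCounts 1.5.3. No molecular identifiers were stated, so PCR copies count as reads. Every count column matched 1 library (0 were of no sample).

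Genes with at least 3 CPM in at least 3 libraries were scaled with TMM and fitted with limma-voom (limma 3.58.1, edgeR 4.0.16, R 4.3.3), with 1 mean per group and Benjamini-Hochberg adjustment over 12851 genes. Tests were two-sided. The filter and interaction term follow the study. The call, an adjusted p under 0.05 and a log2 change beyond 1, is one it used elsewhere. The fit was tested on simulated data. The SE of a change is that of the moderated fit; values per library are TMM-scaled CPM. In the smallest library 3 counts equal 2.65 CPM, which covers counting error only. Replicates differed by more than sampling noise.

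The members and lists were chosen with earlier results of these data known. Named by rule were members called in the change or in all 3 fractions, the highest, the lowest and the most read of each family, the extremes of translation level in each genotype, and the extremes of each other list, of which 1 is not reported here. Other members named were chosen after their values were seen. Coding lengths, sites and coordinates come from GENCODE M21 (GRCm38) and use 1 representative transcript per gene.

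Libraries of a genotype with the same number were taken as fractions of 1 gradient, which the labels do not state. Their deviations from group means correlated by 0.032 to 0.135 within a genotype (18 pairs), against -0.14 to 0.076 for different numbers. Across genotypes, equal numbers correlated by 0 to 0.102 (27 pairs). Because these ranges overlap, the correlations cannot tell a shared gradient from something else shared by equal numbers. The alternatives were edgeR and DESeq2 1.42.0 tests, DESeq2 size factors, total counts, other filters, no fold threshold, fits of only the libraries compared, the block and leaving out each gradient.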

Additional observations from a re-analysis of the deposited data

Results flagged for a closer look

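For 12 members the high polysome to monosome ratio differed between the genotypes by the test of the interaction itself (limma). KO minus WT, on the log2 scale, it was -2.24 for Sf3b6, -2.08 for Snrpd3, -1.97 for Sf3b5, -1.63 for Snrpd2, -1.48 for Srsf9, -1.46 for Snrpd1, -1.11 for Snrpn, -1.07 for Snrpc and -1.06 for Hnrnpab. It was 1.64 for Sf3b3, 1.19 for Sf3a1 and 1.18 for Hnrnpl. Groups of 3 libraries are too small for the check of single samples that stand apart.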

How the results depend on the processing

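Of 97 counts and medians under alternative settings (Snrpert included), 90 stayed close to the reported ones. A steady count can still hold other genes. Under scaling by total counts 14 of 22 calls of the KO translation level were kept. Those of Hnrnpab, Hnrnpf, Hnrnpk, Hnrnpll, Hnrnpul2, Sf3a1, Sf3b1 and Snrpa were lost, and those of Hnrnpdl, Snrpert and Srsf6 gained. For the change 10 of 12 were kept, and Hnrnpa0, Snrpe and Srsf3 were gained. Srsf3 was also gained under other settings, such as without WT gradient 3. Removing the fold threshold moved the count of members called to 29 for the change in translation level, 19 in monosomes, 26 in low polysomes, 40 in high polysomes, 40 for the translation level in WT and 45 for that in KO cells. This follows from the rule itself, since small changes then count, and of the 12851 genes tested 3621, 4797, 6716, 7802, 6944 and 8701 were called in that order. The median change of the members minus that of all genes went from -0.003 to -0.16 when genes with at least 1 count were tested; the cause was not tested. With gradients left out in turn, the counts ran from 11 to 15, 0 to 0, 5 to 7, 12 to 15, 18 to 21 and 19 to 25 in that order. The change of U2af2 ran from -0.2443 to 0.0195 with gradients left out and was positive without KO gradient 1. With the gradient or replicate number as a block, 12 members were called for the change in translation level, 0, 7 and 15 in the 3 fractions, and 19 and 22 for the translation levels, so no count moved by over 1.5 times. Hnrnpl, Sf3a1, Snrpc and Snrpn lost their call in translation level under 1 setting or 2, given beside their values. Within fractions, the calls lost in high polysomes, besides Hnrnpl and Sf3b3, were those of Snrpc (-0.90 without WT gradient 1, -0.96 without WT gradient 2 and -0.93 without KO gradient 1), Snrpf (-0.89 without WT gradient 3), Snrpg (-0.91 without KO gradient 3) and Srsf3 (-0.98 without WT gradient 2). In low polysomes they were those of Sf3b5 (-0.99 without WT gradient 1 and -0.97 without KO gradient 3), Snrpd2 (-0.96 without KO gradient 1) and Snrpert (-1.24, adjusted p = 0.058 by limma, without KO gradient 3). Monosome libraries were the shallowest, which limits low genes such as Hnrnph2, Hnrnpa1 and Snrpert.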
